A study of Mus musculus with 8 samples.

Results

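Krüppel-like factors (KLFs) are zinc finger transcription factors that bind GC-rich and CACCC-type sequences. This report covers 8 of their genes in mouse, Klf2, Klf3, Klf4, Klf5, Klf6, Klf9, Klf10 and Klf15, together with the myogenin and p300 ChIP-seq intervals called within 50 kb of their gene bodies. Of 43759 intervals in 4 peak lists, 63 met this rule. They comprise 12 of 5912 myogenin intervals of the control list, 13 of 6642 of the bexarotene list, 27 of 22051 p300 intervals of the control list and 11 of 9154 of the bexarotene list. The cells were C2C12, a myoblast line derived from C3H mice, kept in low-serum differentiation medium for 24 h. Control cells (Ctl) received no agonist, and treated cells (Bex) received 50 nM bexarotene, a ligand selective for the retinoid X receptor, from the start of differentiation. Each factor was profiled in 1 library per condition (Myog_Ctl, Myog_Bex, p300_Ctl and p300_Bex), so no difference between conditions has a replicate error and no p-value is given. C2C12 is a single line, and the lists hold positions without read counts or scores, so the depth of each library is unknown and a missing interval means only that none was called.

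Myogenin is a basic helix-loop-helix factor of terminal muscle differentiation that binds E-boxes, and p300 is a histone acetyltransferase that marks active promoters and enhancers. Among the KLFs, Klf3 is a repressor that recruits CtBP and acts on muscle promoters, while Klf5 takes part in myogenic differentiation beside MyoD. Klf4 is a pluripotency and vascular factor, Klf2 an endothelial flow-responsive factor, Klf6 an injury-inducible factor and Klf10 an early gene of TGF-beta signaling. Klf9 and Klf15 are glucocorticoid-inducible, and Klf15 controls amino acid and lipid use in skeletal muscle. As a check of the lists, 8 muscle loci (Myog, Ckm, Acta1, Des, Tnnt2, Myh3, Chrna1 and Mef2c) were searched in the same way. A myogenin interval lay within 50 kb of 6 of them in control and 5 in bexarotene, and Ckm and Mef2c had none. A p300 interval lay within 50 kb of 5 and 6 of them. Of all coding genes 32.4% and 33.0% had a myogenin interval within this distance in control and bexarotene, and 53.7% and 35.2% a p300 interval, so the p300 count in control was near that of all genes.

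Control and bexarotene intervals of a factor with 1 bp or more in common were joined into a region, called shared when both conditions contributed. The sequences that carry the myogenin findings are the E-boxes under these regions. The forms counted were CAGCTG and the reverse-complementary pair CACCTG and CAGGTG. Below are the central 100 bases of the regions with an E-box within 50 bp of the center that touch no annotated UTR, read from the plus strand of mm9 with the E-box in capitals. The Klf3 and Klf5 regions were called in both conditions, the Klf4 region and the first Klf10 region in bexarotene, and the second Klf10 region in control.
Klf3, chr5:65231467-65231566: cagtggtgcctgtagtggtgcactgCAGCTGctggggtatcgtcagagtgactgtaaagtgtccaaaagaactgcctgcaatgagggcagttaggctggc
Klf5, chr14:99699116-99699215: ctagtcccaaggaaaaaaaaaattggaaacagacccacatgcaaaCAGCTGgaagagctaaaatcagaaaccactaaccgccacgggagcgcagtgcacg
Klf4, chr4:55555893-55555992: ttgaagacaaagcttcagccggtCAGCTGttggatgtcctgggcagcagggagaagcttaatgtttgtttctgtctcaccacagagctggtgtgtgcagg
Klf10, chr15:38231080-38231179: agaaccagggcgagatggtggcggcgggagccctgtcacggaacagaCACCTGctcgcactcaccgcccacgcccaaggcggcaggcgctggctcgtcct
Klf10, chr15:38229878-38229977: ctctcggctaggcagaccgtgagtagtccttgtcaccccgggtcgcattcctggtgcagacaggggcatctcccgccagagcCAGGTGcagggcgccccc
The shared Klf6 region lies in a 3' UTR, so 30 bases around its most central E-box are shown instead, followed by E-boxes nearer the interval edges, the first in a control-only region of Klf6 and the others in regions of Klf6, Klf9 and Klf10 called only in bexarotene.
Klf6, chr13:5868942-5868971: tgatatttcatcCAGCTGcttggctttttg
Klf6, chr13:5869794-5869823: tcctacttaccaCAGCTGtctctggaggga
Klf6, chr13:5844421-5844450: gtttggaatctgCAGCTGctggacaacacc
Klf9, chr19:23208437-23208466: cttaggacctgtCAGCTGtctcgccacctc
Klf10, chr15:38227060-38227089: acagttgggcatCAGCTGtgtgacggatga
Klf10, chr15:38231679-38231708: gcgggttcacggCAGCTGttggagccggag

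The 8 genes differed widely in how many intervals lay near them. Myogenin intervals were called near 5 of 8 genes in control and 6 of 8 in bexarotene, beside the 32.4% and 33.0% of 22380 protein-coding genes. For p300 the counts were 5 of 8 in control and 3 of 8 in bexarotene, where 53.7% and 35.2% of the coding genes had at least 1. For myogenin, Klf6 led the control list with 4 intervals and Klf10 the bexarotene list with 6. For p300, Klf6 led both lists, with 11 intervals in control and 7 in bexarotene, and Klf3 followed in control with 8. Klf4 and Klf5 had at most 3 intervals in any list, and Klf9 had 1 in all. No interval of any list was called within 50 kb of Klf2 or Klf15, a state shared by 36.0% of the coding genes.

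**Figure D1:**
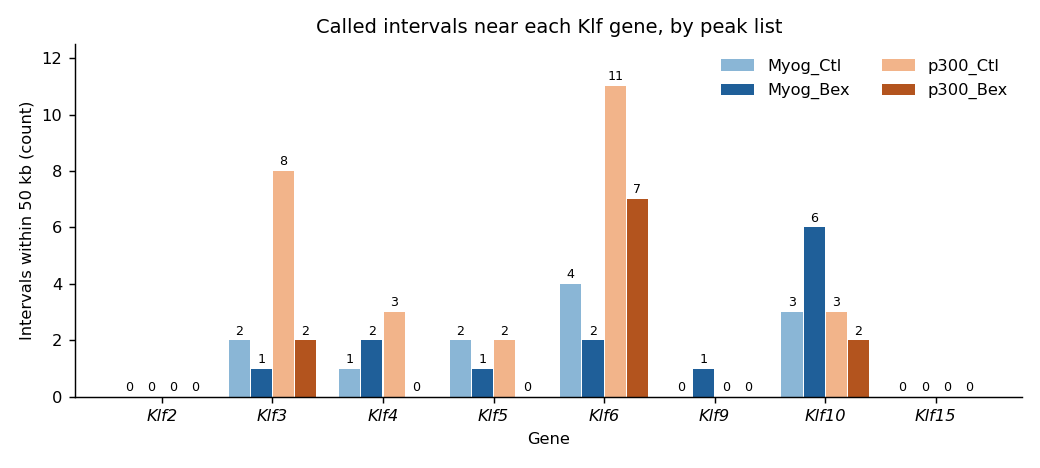
Number of called intervals within 50 kb of each gene body (y axis, count) for the 8 Klf genes (x axis), with 1 bar per peak list and the count above it. Klf6 has 11 p300 intervals in control and 7 in bexarotene, Klf10 has 3 and 6 myogenin intervals, and Klf2 and Klf15 have none.

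Read against the genome, single genes stood at the upper end of the counts. At least 11 p300_Ctl intervals, the count of Klf6, were found at 1.25% of the coding genes, and at least 7 p300_Bex intervals at 0.63%. At least 8 p300_Ctl intervals, as at Klf3, were found at 3.19%, and at least 6 Myog_Bex intervals, as at Klf10, at 1.16%. These shares are descriptions over genes of unequal length, since a longer gene body gives a wider search window. Some p300 intervals counted at Klf3 lay nearer the annotated start of another gene.

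**Figure D2:**
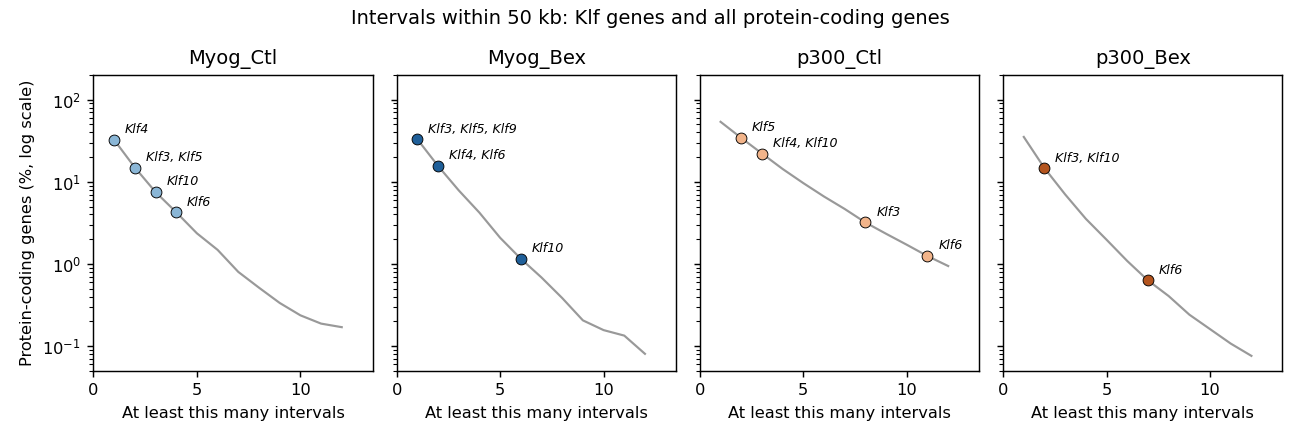
Share of 22380 protein-coding genes (y axis, percent, log scale) with at least the number of intervals on the x axis within 50 kb, in 1 panel per list (gray line), with the Klf genes marked at their own counts. Klf6 lies at 1.25% in p300_Ctl and 0.63% in p300_Bex, and Klf10 at 1.16% in Myog_Bex.

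Klf6 had the most p300 intervals of the group, and most of its control intervals had a partner in the bexarotene list. The gene lies on chromosome 13, with its body annotated at 5860735 to 5869639 on the plus strand. Of its 11 p300_Ctl intervals, 7 had an overlapping p300_Bex interval and 4 did not. No p300_Bex interval of Klf6 lay outside a control one, where the whole p300_Bex list of 9154 intervals gave 1856 bexarotene-only regions. At the other members, 3 of 16 p300_Ctl intervals had a bexarotene partner, and over the whole p300_Ctl list 32.7% did.

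The shared p300 regions of Klf6 spanned the upstream flank, the start of the gene, its 3' end and a distal site. The interval nearest the transcription start site (TSS) lay at chr13:5860745-5860953 in control and chr13:5860756-5860913 in bexarotene, with centers 114 and 99 bp downstream of the TSS in the 5' UTR of exon 1. The longest p300 interval of any member, 704 bp at chr13:5869270-5869973, covered the end of the gene in control, and its bexarotene partner at chr13:5869590-5869929 was 340 bp long. Farther out, shared p300 centers lay 23916, 16185 and 15563 bp upstream and 39662 bp downstream of the TSS in the control list.

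The 3 shared upstream p300 regions of Klf6 each held the bZIP consensus TGANTCA, the AP-1 type site, within 100 bp of the center. They are shown as the central 100 bases of the bexarotene interval, plus strand of mm9, with the consensus in capitals, and were picked after their motifs were seen.
Klf6, chr13:5836785-5836884: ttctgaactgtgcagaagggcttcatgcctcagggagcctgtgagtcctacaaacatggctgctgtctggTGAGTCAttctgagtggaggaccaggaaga
Klf6, chr13:5844457-5844556: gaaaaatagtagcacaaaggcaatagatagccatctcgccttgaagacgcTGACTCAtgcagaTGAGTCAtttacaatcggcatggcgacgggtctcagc
Klf6, chr13:5845096-5845195: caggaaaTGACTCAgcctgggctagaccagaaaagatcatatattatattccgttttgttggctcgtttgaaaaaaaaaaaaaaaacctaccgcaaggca
Searched on both strands, TGANTCA was found in the 100 bp to each side of the center in 4 of 10 shared and 2 of 17 control-only p300 regions near the Klf genes, 21.4% (95% Wilson interval 10.2 to 39.5) of 28 regions in all. Among all 23903 p300 regions it occurred in 33.2%, and in the flanking windows of those regions in 6.06%. The shares by class over all p300 regions were not computed. Of the 4 shared regions with TGANTCA, 3 are the Klf6 regions shown above. A match shows only that these letters are present.

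Myogenin at Klf6 was called more often in control, but each interval called in 1 condition only had the smallest length of its list. These lengths were 172 bp in control and 168 bp in bexarotene. They were the lengths of 54.8% of all Myog_Ctl and 50% of all Myog_Bex intervals. The shared region lay at chr13:5868829-5869052 in control and chr13:5868840-5869141 in bexarotene, within the 3' UTR of exon 4, and overlapped p300 in both conditions. It held 2 CAGCTG sites, 34 and 59 bp from the center of the bexarotene interval. Called only in control were intervals chr13:5863506-5863677 in intron 1, chr13:5869785-5869956, 146 bp past the gene end and inside the longest p300 region, and chr13:5870813-5870984. The second of these held a CAGCTG 62 bp from its center. The interval called only in bexarotene, chr13:5844300-5844467, overlapped the p300 region 16185 bp upstream by 66 bp of its control and 81 bp of its bexarotene interval. Its CAGCTG lay 52 bp from the center.

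**Figure D3:**
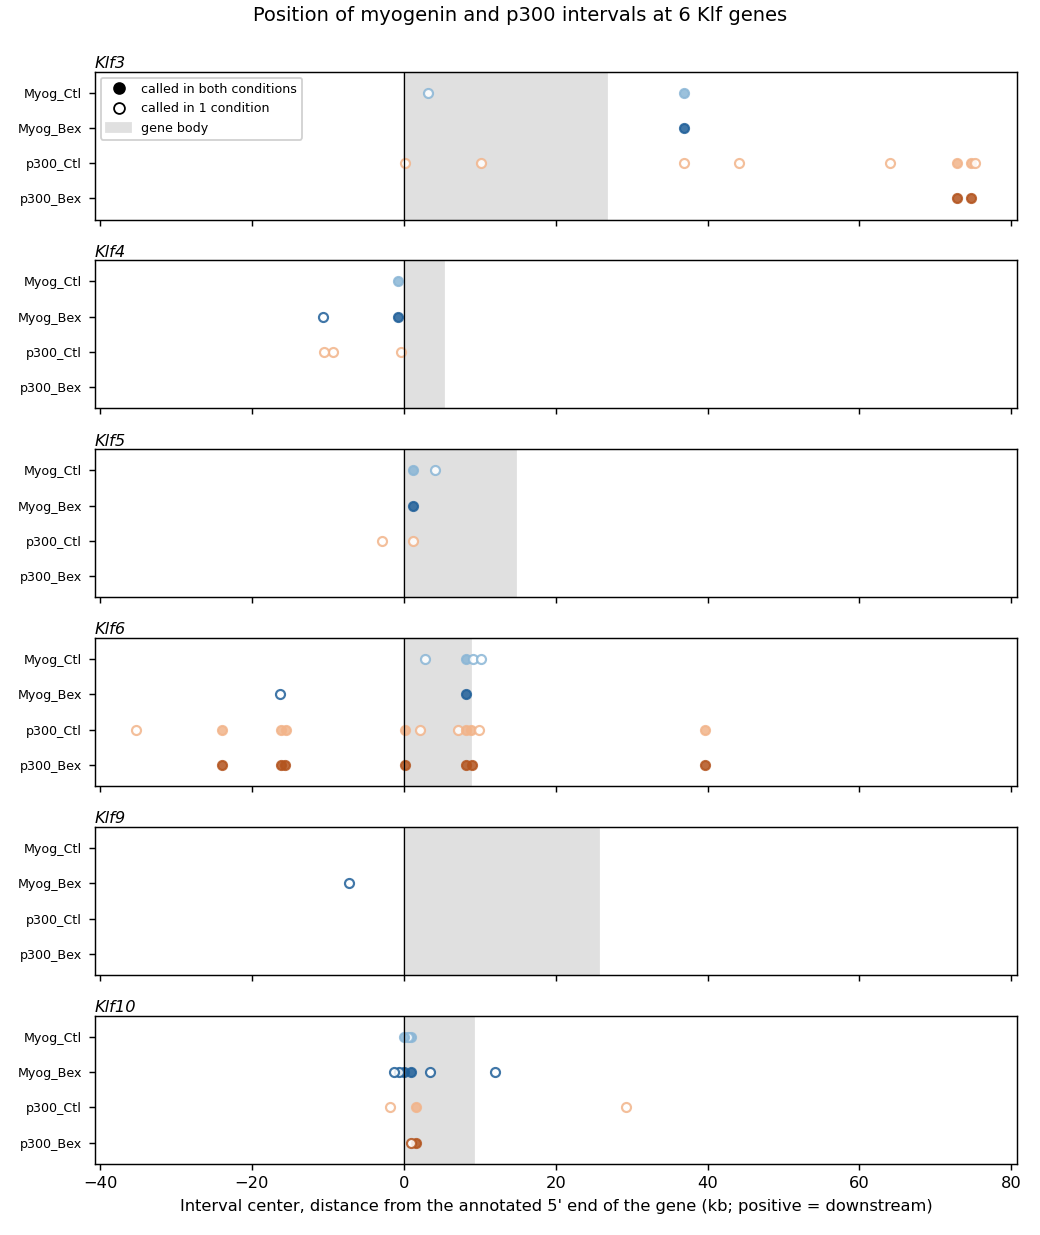
Centers of all intervals within 50 kb of the 6 Klf genes that have any, by distance from the annotated 5' end of the gene (x axis, kb, positive downstream) and by list (rows), with the gene body shaded. Filled points were called in both conditions and open points in 1, and close points overlap. The p300 rows of Klf6 match at 7 sites, whereas Klf4 and Klf5 have no p300_Bex point.

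Klf10 had the opposite balance for myogenin, with 3 intervals in control and 6 in bexarotene, several of them within 1 kb of an annotated start. The gene lies on chromosome 15, with its body annotated at 38221219 to 38230464 on the minus strand, and it has an internal annotated start at 38229466. The shared regions lay on the 2 starts. The first lay at chr15:38230290-38230461 in control and chr15:38230314-38230481 in bexarotene, over exon 1. The second lay at chr15:38229438-38229663 and chr15:38229421-38229588, with centers 84 and 38 bp upstream of the internal start. Neither held an E-box in the bexarotene interval.

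Further myogenin intervals at Klf10 were called only in bexarotene, at both sides of these starts. The interval chr15:38231046-38231213 was centered 665 bp upstream of the TSS, with a CACCTG at 0 bp from its center. The interval chr15:38231608-38231889 was centered 1284 bp upstream and held a CAGCTG and a CAGGTG, 55 and 89 bp from the center. Downstream, intervals lay at chr15:38226934-38227101 in the coding part of exon 3 and chr15:38218328-38218495, 2724 bp past the gene end, each with 1 CAGCTG. The interval called only in control, chr15:38229842-38230013 in intron 1, held a CAGGTG 35 bp from its center. Of the 9 Klf10 intervals in the 2 lists, only those of 226 and 282 bp exceeded the smallest length of their list, 172 bp in control and 168 bp in bexarotene. Over the whole lists, 54.8% of Myog_Ctl and 50% of Myog_Bex intervals had the smallest length.

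The internal start of Klf10 also held the single p300 region near these genes that was called in bexarotene alone, where 7.76% of all p300 regions were of this class. It lay at chr15:38229344-38229548, centered 20 bp downstream of the internal start, and overlapped the shared myogenin region by 111 bp of its control and 128 bp of its bexarotene interval. A neighboring p300 region was called in both conditions, chr15:38228768-38228985 (218 bp, the longest p300 interval at Klf10) and chr15:38228786-38228982. Its window of 100 bp to each side of the bexarotene center held 3 GGGCGG, the Sp1 and KLF type GC box, and 1 TGANTCA. In the same window, 10.5% of all p300 regions held GGGCGG and 33.2% held TGANTCA. Control-only p300 intervals lay at chr15:38232162-38232320 and chr15:38201073-38201231.

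The distal myogenin site of Klf3 was called in both conditions, and a p300 interval lay on it in control. The gene lies on chromosome 5, with its body annotated at 65194628 to 65221368 on the plus strand. The shared myogenin region lay 10042 bp (control) and 9971 bp (bexarotene) past its end, chr5:65231410-65231726 (317 bp) in control and chr5:65231339-65231694 (356 bp) in bexarotene, the longest Myog_Bex interval of the 8 genes. It held 3 CAGCTG sites, 22, 81 and 108 bp from the center of the bexarotene interval. A p300 interval chr5:65231376-65231668 lay on it in control only. Its center was 46 bp from that of the Myog_Ctl interval and 6 bp from that of the Myog_Bex interval. The other myogenin interval, chr5:65197715-65197886 in intron 1, was called in control only and held no E-box.

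Of 8 p300_Ctl intervals at Klf3, 2 had a bexarotene partner, where 32.7% of the whole list did. The interval at the TSS, chr5:65194543-65194967 with its center 7 bp upstream of an annotated start, was control-only, as was the longest, 437 bp at chr5:65258486-65258922. The shared ones, chr5:65267319-65267571 and chr5:65269119-65269427 in control, lay 45951 and 47751 bp past the gene end, where the TSS of Tlr1, a toll-like receptor gene, was nearer than that of Klf3. The same held for the control-only interval chr5:65269784-65269984, 48416 bp past the gene end.

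Klf4 and Klf5 each had 1 shared myogenin region, upstream of the TSS at Klf4 and in intron 1 at Klf5, and none of their 5 p300_Ctl intervals had a bexarotene partner, where 32.7% of the whole list did. Klf4 lies on chromosome 4, with its body annotated at 55540013 to 55545347 on the minus strand. Its shared myogenin region, chr4:55545949-55546220 in control and chr4:55546058-55546225 in bexarotene, was centered 737 and 794 bp upstream of the TSS and held no E-box. The 100 bp to each side of its center held 1 CCCCACCC, a CACCC-type KLF site, which 6.06% of all myogenin regions held in the same window. The p300 interval nearest the Klf4 TSS, chr4:55545615-55545773, was centered 347 bp upstream.

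Farther upstream of Klf4, a myogenin interval called in bexarotene alone, chr4:55555837-55556048, lay wholly inside the longest p300 interval of the gene, chr4:55555672-55556072 (401 bp), which was called in control alone. Myogenin and p300 thus shared the position but not the condition in these lists. The myogenin interval was centered 10595 bp upstream of the TSS with a CAGCTG 24 bp from its center. A further p300_Ctl interval lay at chr4:55554628-55554828.

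Klf5 lies on chromosome 14, with its body annotated at 99697910 to 99712624 on the plus strand. In its intron 1 a myogenin region was shared, chr14:99698770-99699358 (589 bp, the longest myogenin interval of the 8 genes) in control and chr14:99699026-99699304 (279 bp) in bexarotene. The bexarotene interval held a single CAGCTG 2 bp from its center, and the control interval held 2 E-boxes. The p300_Ctl interval chr14:99699007-99699320 was both the nearest to the TSS and the longest at the gene. Its center lay 99 bp from that of the shared Myog_Ctl interval and 2 bp from that of Myog_Bex. A control-only myogenin interval in intron 2 lay at chr14:99701904-99702075, and the remaining p300_Ctl interval at chr14:99694918-99695076.

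Klf9 had a single interval in all 4 lists, a myogenin interval called in bexarotene. The gene lies on chromosome 19, with its body annotated at 23215716 to 23241401 on the plus strand, and the interval lay at chr19:23208407-23208680, centered 7173 bp upstream of the TSS. It was 274 bp long and held a CAGCTG and a CAGGTG, 92 and 66 bp from its center. The nearest Myog_Ctl interval lay 98991 bp from the gene body and the nearest p300 intervals 106681 bp (control) and 162596 bp (bexarotene) away.

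For Klf2, on chromosome 8, with its body annotated at 74842932 to 74845555, the nearest intervals lay 138495 bp (Myog_Ctl), 99055 bp (Myog_Bex), 78935 bp (p300_Ctl) and 324725 bp (p300_Bex) from the gene body. For Klf15, on chromosome 6, with its body annotated at 90412570 to 90425232, they lay 228357, 62663, 128086 and 288918 bp away in the same order. The TSS nearest to each of these intervals belonged to another gene.

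Across the group, joining gave 19 myogenin regions, of which 6 were control-only, 6 shared and 7 bexarotene-only. The class called with bexarotene alone made up 36.8% (Wilson 95% limits 19.1 and 59.0), where 38.2% of all 9553 myogenin regions were of this class, and the control-only and shared classes made up 30.6% and 31.3% of all regions. Without Klf10 it made up 25% of 12 regions. The limits cover counting error only, and regions at 1 gene are not independent. The ratio of myogenin intervals, bexarotene over control, was added after seeing the data. It was 1.08 (95% interval 0.504 to 2.33) near the Klf genes and 1.12 over the lists. Without Klf10, 9 control and 7 bexarotene intervals remained, a ratio of 0.778, which lies within the interval of the main value.

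The 28 p300 regions comprised 17 control-only, 10 shared and 1 bexarotene-only. The control-only share was 60.7% (42.4 to 76.4), where 62.1% of all p300 regions were control-only and 30.1% shared. Without Klf6 it was 76.5% of 17 regions. The ratio of p300 intervals, bexarotene over control, was 0.407 (0.205 to 0.810) near the Klf genes, 0.415 over the lists and 0.25 without Klf6. Leaving out Klf6 thus moved the p300 control-only share to just above its upper limit of 76.4%. The myogenin bexarotene-only share without Klf10 stayed within its limits.

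Shared p300 intervals were longer in control at each of the 10 sites near Klf genes, where 90.0% of 7097 shared p300 regions with 1 interval per list were longer in control. The difference ranged from 21 to 364 bp with a median of 119 bp, and its median over all such regions was 107 bp. For myogenin 4 of 6 shared regions were longer in control, where 54.0% of 2977 were. A pair with both intervals at the smallest lengths of their lists (172 and 168 bp) counts as longer in control by 4 bp, as in the exon 1 pair of Klf10. Without such pairs 3 of 5 shared myogenin regions near the Klf genes were longer in control, and 45.5% of 2514 over all, so the direction over the lists turned. No shared p300 region near the Klf genes was such a pair, and over all p300 regions the share without them was 89.2%. The largest myogenin difference was 310 bp at Klf5, and at Klf3 and Klf6 the bexarotene interval was the longer one. Length is the extent of the called interval and not its signal.

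**Figure D4:**
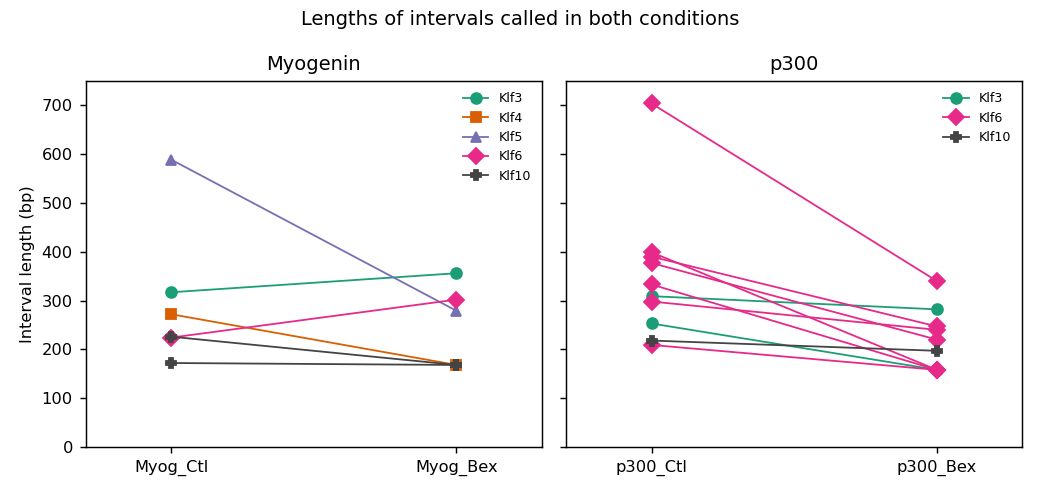
Length of each interval called in both conditions (y axis, bp) in the control and bexarotene lists (x axis), joined by a line, for 6 myogenin and 10 p300 regions, with color and symbol by gene. All 10 p300 lines fall from control to bexarotene, and myogenin lines run in both directions.

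Of the 19 myogenin regions 7 overlapped a p300 interval of either condition, 36.8% (19.1 to 59.0), against 34.7% of all myogenin regions. With p300 centers within 500 bp of the myogenin center counted instead, 11 of 19 had p300, 57.9% (36.3 to 76.9), against 40.3% of all. Those with an overlap were 4 of 6 shared, 2 of 7 bexarotene-only and 1 of 6 control-only regions, and over all regions the shares were 51%, 30.9% and 22.8%. The shared ones lay at Klf3, Klf5, Klf6 and Klf10. Conversely 7 of 28 p300 regions overlapped a myogenin interval, 25% (12.7 to 43.4), against 13.8% of all p300 regions. The central 100 bp held an E-box in 7 of 28 p300 regions, against 20.3% of all.

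Within 1 kb of a coding TSS lay 5 of 19 myogenin regions, 26.3% (11.8 to 48.8), against 20.8% of all. Of these, 3 were shared (Klf4 and both starts of Klf10), 1 control-only and 1 bexarotene-only, both of the latter at Klf10, which thus held 4 of the 5. Over all myogenin regions, the share within this distance was 39.8% for control-only, 8.90% for shared and 15.4% for bexarotene-only ones. Of the 28 p300 regions 5 lay within 1 kb, 17.9% (7.88 to 35.6), against 12.4% of all, at Klf3, Klf4, Klf6 and Klf10. With a limit of 2 kb the p300 share near the Klf genes was 28.6%, and the share over all p300 regions at this limit was not computed.

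E-boxes were present in most myogenin regions near the Klf genes but often off center. Within 50 bp of the center 6 of 19 regions held one, 31.6% (15.4 to 54.0), against 50.4% of all myogenin regions and 12% of windows 2 kb away. Over the whole interval 12 of 19 did, 63.2% (41.0 to 80.9), against 66.5% of all. The 12 regions held 17 sites, of which 13 were CAGCTG, 3 CAGGTG and 1 CACCTG, and 6 of the 17 lay within 50 bp of the center.

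By class, the central window held an E-box in 2 of 7 bexarotene-only, 3 of 6 shared and 1 of 6 control-only regions, where the shares over all myogenin regions were 52%, 70.3% and 27.9%. Over the whole interval, a measure added after seeing the data, an E-box was present in 7 of 7 bexarotene-only regions (95% Wilson interval 64.6 to 100%), 3 of 6 shared regions (18.8 to 81.2) and 2 of 6 control-only regions (9.68 to 70.0). Over all myogenin regions these shares were 67.3%, 89.2% and 42.2%. The shared regions without one were those at the promoters of Klf4 and Klf10. The control-only regions without one lay in or near the bodies of Klf3, Klf5 and Klf6.

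**Figure D5:**
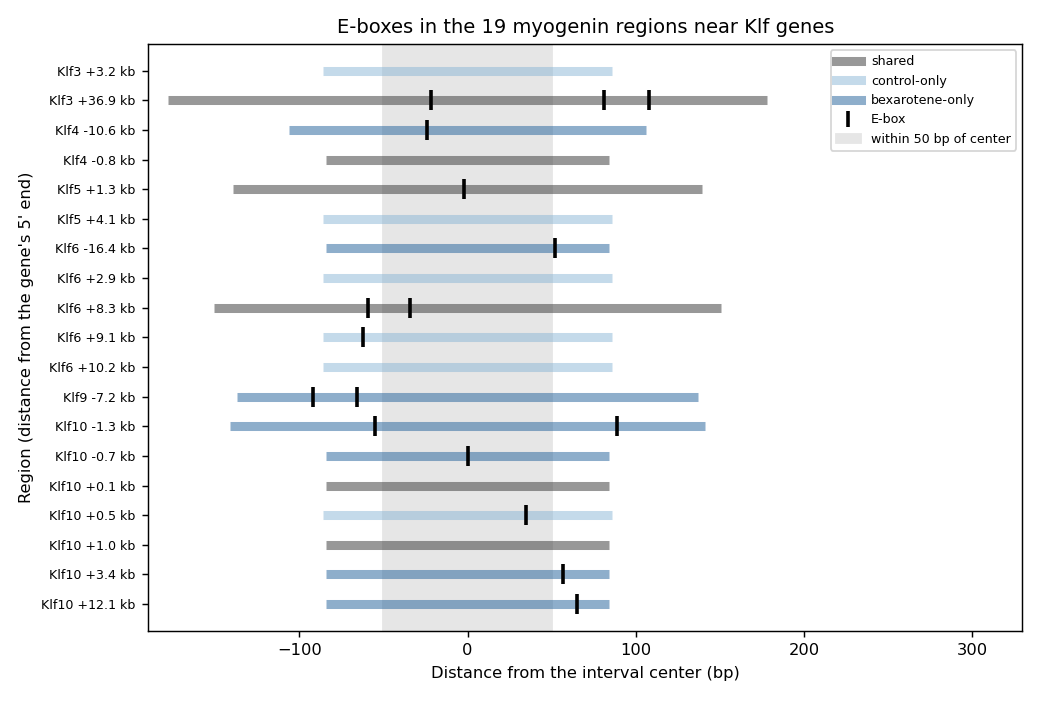
Extent of the 19 myogenin regions (bars, bp from the interval center on the x axis, colored by class, with the bexarotene interval drawn where shared) and the E-boxes in them (ticks), labelled by gene and distance from its 5' end. All 7 bexarotene-only bars carry a tick, where 67.3% of all bexarotene-only myogenin regions hold an E-box. This whole-interval measure was added after seeing the data. Of the 17 ticks, 6 fall in the shaded 100 bp around the center.

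Of the 19 myogenin regions, 13 held at least 1 of 8 other consensus sequences in the 200 bp around the center, searched on both strands, 68.4% (46.0 to 84.6) against 66.5% of all myogenin regions. The Runx core TGTGGT occurred in 5, the Atf core TGACG in 4, GGGCGG in 3, CCCCACCC in 2, and CCACACCC, the Tead core GGAATG and the nuclear receptor core AGGTCA in 1 each. Among all myogenin regions TGTGGT occurred in 26.1%, TGACG in 8.79%, GGGCGG in 9.62%, CCACACCC in 3.12%, GGAATG in 17.3% and AGGTCA in 13.2%. TGANTCA occurred in 0 of 19, which allows up to 16.8% (Wilson), where 14.1% of all myogenin regions held it. The AGGTCA matches lay in the 200 bp around the center of a bexarotene-only myogenin region downstream of Klf10. They also lay in this window of 3 p300 regions at Klf3, Klf6 and Klf10, and 10.7% of all p300 regions held this sequence there. The Klf6 match lay past the end of its interval.

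The remaining genes of the family served as a comparison list. Of 9 other Klf genes (Klf1, Klf7, Klf8, Klf11, Klf12, Klf13, Klf14, Klf16 and Klf17), 3 had a myogenin interval in control and 3 in bexarotene, and 5 and 3 had a p300 interval. Over all coding genes the shares were 32.4%, 33.0%, 53.7% and 35.2% in the same order. Klf16 had 10 Myog_Ctl and 3 Myog_Bex intervals, the largest control count of the family, while Klf10 with 6 had the largest bexarotene count. Of 9 Sp genes (Sp1 to Sp9) 5 had a myogenin interval in control and 2 in bexarotene, and 6 and 3 had a p300 interval. Some intervals lay near more than 1 Sp gene, and the distinct intervals numbered 7, 2, 12 and 4 in the same order.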

How the data were processed

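Myogenin and p300 ChIP-seq lists of 4 of the 8 samples were analysed, and the input and H3K27me3 samples were not used here. The authors aligned single-end reads to mm9, with BWA-MEM for myogenin and Bowtie for p300, used Picard to remove duplicates, and called peaks by HOMER in factor style. There is 1 list per library, and the use of an input in calling is not given in the sources used here. The aligner thus differs between the factors, and their counts were not compared. The deposited files hold peak positions only, so tag counts are unknown, depth is given only as an average over data sets, and the calling threshold could not be varied except through interval length. Starts were counted from 0 and are printed counted from 1.

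Gene bodies, transcript starts, exons and UTRs came from GENCODE vM1 and sequences from NCBIM37, the build of mm9. An interval belonged to a gene when the gap to its body was at most 50 kb. Distances ran from the interval center to the nearest coding TSS of the gene. Motifs were counted on both strands, E-boxes within 50 bp and others within 100 bp of the center, taken from the bexarotene interval where a region was shared. Flanking windows lay 2 kb to either side and held no interval of the factor. Shares carry 95% Wilson intervals, and ratios the same interval of the bexarotene share converted to a ratio. The members and lists were chosen with earlier results of these data known. All myogenin intervals, and for p300 the interval nearest the TSS and the longest one of each gene, are printed by rule; further p300 intervals were added after their positions were seen. Python 3.11.15, numpy 2.4.6, pysam 0.24.0 and matplotlib 3.10.9 were used, and the functions were tested on simulated data.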

Additional observations from a re-analysis of the deposited data

How the results depend on the processing

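Of 40 alternatives, 35 left a count within 1.5 times its main value or a share or ratio within the 95% interval of its main value. These intervals are wide, and the 35 include the p300 ratio, which moved from 0.407 to 0.25 without Klf6, the myogenin ratio, which turned from 1.08 to 0.778 without Klf10, the share of myogenin regions with p300, which moved from 36.8% to 57.9% with centers within 500 bp, the p300 promoter share, which moved from 17.9% to 28.6% with a limit of 2 kb, and the myogenin bexarotene-only share, which moved from 36.8% to 25% without Klf10. The E-box share with CAGCTG alone was 21.1%. Widening the window to 100 kb raised the Myog_Bex intervals from 13 to 20. Leaving out Klf6 moved the p300 control-only share from 60.7% to 76.5%. The share of myogenin regions with an E-box moved from 31.6% to 63.2% with 100 bp to each side of the center, to 57.9% with any CANNTG, and to 63.2% over the whole interval. Over all myogenin regions these alternatives gave 66.3%, 69.8% and 66.5%. The whole interval and the lengths without pairs at the smallest size (60% of myogenin and 100% of p300 pairs longer in control) were added after seeing the data. So was the ratio of myogenin intervals, both its main value of 1.08 and its values without Klf10 and with only intervals longer than the smallest (1.2). The cause of the moves other than fewer genes or wider windows was not tested. No paired analysis was possible because each condition has 1 library. With 19 and 28 regions, shares are known only to within their wide intervals.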
